A study of Homo sapiens with 3 samples.

Results

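The levels of 10 genes around epithelial to mesenchymal transition (EMT) were read from RNA-seq libraries labelled HepG2, the name of an established line of human liver cancer cells. The genes were VIM, the transcription factors ZEB1, ZEB2, SNAI1, SNAI2, TWIST1 and TWIST2, and the epithelial regulators ESRP1, ESRP2 and GRHL2. They were selected by gene name from 39320 gene rows on the assembled chromosomes and the mitochondrial genome, and each of the 10 had 1 such row. The selection was made with their levels already known, so the levels are given as a description and no test was run on them. RNA from cells labelled as wild-type was sequenced in 3 libraries, replicates 1 to 3, with no treatment and no other group. No label says that the replicates came from separate cultures, so the SD between them may be technical. The study asked how splice variants of METTL3 act in liver cancer, and these libraries describe the unmodified cells.

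In EMT, epithelial cells lose their junctions and take on the shape and motility of mesenchymal cells. ZEB, SNAI and TWIST proteins bind E-boxes, the short DNA motifs in promoters of junction genes such as CDH1, and repress them. GRHL2 sustains epithelial genes and opposes ZEB1, ESRP1 and ESRP2 keep the epithelial splice forms of many mRNAs, and the miR-200 family of microRNAs represses ZEB1 and ZEB2. Vimentin, the product of VIM, is the main intermediate filament of mesenchymal cells and is also made by many cultured cell lines.

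The deposited tables give TPM, in which every library has the same sum and gene length is corrected for, FPKM, which is proportional to TPM within a library, and coverage, the mean depth over a gene without scaling for library size. Read counts are not in these tables, so depth is unknown and counting intervals are not given. A ratio of coverage to FPKM grows with sequencing depth. Among genes with at least 1 FPKM, the highest value that many genes shared was 13.3, 12.8 and 11.5 in replicates 1, 2 and 3. This shared value is called here the highest ratio, or highest coverage per FPKM, of a library, and single genes may lie above it. The label was checked against 14 genes for proteins that hepatocytes secrete. Of these, 12 were below 1 TPM in every library, 9 were listed at 0 in every library, and ALB and APOA1 were among the 9. The other 2, VTN and RBP4, had means of 23.3 and 11.0 TPM. Of protein-coding gene rows, 59.5% reached 1 TPM in every library and 20.0% were at 0 in every library. The libraries therefore go against their label in most of these 14 genes and are called here the libraries labelled HepG2. Cells of other types that make vimentin were also checked. Summed over 8 fibroblast and stromal markers, the level was between 2.17 and 2.66 TPM, most of it from PDGFRB. PDGFRA was listed at 0 in every library. This sum depends on the genes chosen. Of mesenchymal genes outside these 8, COL5A1 had 132 ± 7.11, COL1A1 6.93 ± 0.564 and ACTA2 2.90 ± 0.657 TPM (SD, n = 3). SPARC, also outside them, was listed at 0 in every library. Summed over 6 endothelial markers, the level was between 1.68 and 1.94 TPM, most of it from VWF, with KDR listed at 0. Summed over 6 blood markers it was between 9.25 and 10.9 TPM, most of it from CD68, with PTPRC, CD3E, MS4A1 and TYROBP listed at 0.

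VIM was by far the highest of the 10 genes, ESRP2 and TWIST2 came next, and ESRP1 and GRHL2 were listed at 0. At least 1 TPM was reached in every library by 8 of the 10 genes, a limit that 59.5% of protein-coding gene rows and 33.8% of all gene rows met. At least 10 TPM was reached in every library by 4 of the 10, VIM, ESRP2, TWIST2 and ZEB1, against 40.4% of protein-coding gene rows and 20.7% of all gene rows. The 2 genes at 0 stand beside 20.0% of protein-coding gene rows that were at 0 in every library. The median of the mean levels was 7.12 TPM over the 10 genes and 4.99 TPM over all 18739 protein-coding gene rows. Levels in bulk RNA cannot tell fewer cells that express a gene from less of its RNA per cell. The order by mean TPM was VIM, ESRP2, TWIST2, ZEB1, SNAI1, SNAI2, TWIST1 and ZEB2. Neighbours in this order did not overlap between libraries, except that SNAI2 and TWIST1 did.

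**Figure D1:**
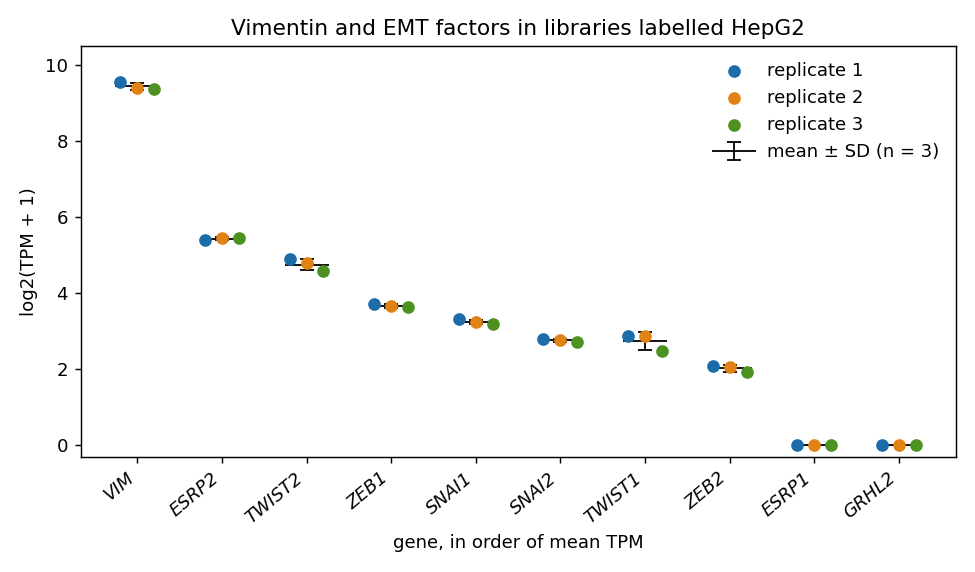
Level of each of the 10 genes on the log2(TPM + 1) scale. Points are the 3 libraries labelled HepG2, and bars show the mean ± SD of the log2 values. VIM lies above 9 on this scale, while ESRP1 and GRHL2 lie at 0 in all 3 libraries.

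VIM is on the plus strand of chromosome 10 from 17228241 to 17237593 in GRCh38, and its reference transcript in GENCODE v44, the MANE Select transcript, has 10 exons with the same start and end. It had 749, 672 and 661 TPM in replicates 1, 2 and 3, a mean of 694 ± 48.1 TPM (SD, n = 3). Replicate 1 was the highest, and the other libraries were close to each other. This mean ranked 169th among the 13753 genes whose mean reached 1 TPM and exceeded 98.8% of them. By FPKM, VIM had 354, 321 and 317 in the same libraries. VIM was 11.5 ± 0.550 times the summed TPM of the 6 ZEB, SNAI and TWIST genes (SD, n = 3), whose sum was between 55.2 and 65.0 TPM.

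Among the type III intermediate filament genes, VIM carried nearly all of the signal. It made up 99.9% of the summed TPM of VIM, DES, GFAP and PRPH in every library. DES, the muscle filament gene, had 0.423 ± 0.0467 TPM and PRPH, the peripherin gene, had 0.287 ± 0.126 TPM (SD, n = 3). GFAP, the astrocyte filament gene, was listed at 0 in every library, as was NEFM, a neurofilament gene. The neurofilament genes NEFL and NEFH were below 1 TPM in every library. Other filament genes were higher, with 45.3 ± 2.83 TPM for SYNM, 43.6 ± 3.77 TPM for INA and 8.37 ± 0.239 TPM for NES (SD, n = 3). Of the 15 other filament and plakin genes listed, 9 reached 1 TPM in every library and 6 were below it in every library, a share close to the 59.5% of protein-coding gene rows that reached it. The highest were LMNA, for lamins A and C of the nuclear envelope, with 722 ± 25.1 TPM, LMNB1, for lamin B1, with 123.5 ± 4.43 TPM, and PLEC, for the filament linker plectin, with 119 ± 6.94 TPM (SD, n = 3). LMNA was also 1 of the 3 genes whose level was nearest to that of VIM in all 3 libraries. The log2 ratio of VIM to LMNA was -0.06 ± 0.05 on the log2(TPM + 1) scale (SD, n = 3). The other 2 nearest genes were the translation factor gene EIF4G2 and the ribosomal protein gene RPL15, which differed from VIM by at most 0.08 and 0.09 on that scale.

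VIM-AS1, an antisense RNA gene on the minus strand, overlaps the 5′ end of the VIM row over 1745 bp. It had 1.00, 1.26 and 1.09 TPM in replicates 1, 2 and 3. Its level was a small fraction of that of VIM in each library. The strand setting of the quantification is not given in the sources used here, so reads in the shared stretch cannot be told apart.

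ZEB1 and ZEB2 encode zinc finger and homeobox repressors that share their main targets. ZEB1, at chromosome 10 on the plus strand from 31318495 to 31529814, had 12.02, 11.6 and 11.3 TPM in replicates 1, 2 and 3, a mean of 11.6 ± 0.361 TPM (SD, n = 3). ZEB2, at chromosome 2 on the minus strand from 144384081 to 144520391, had 3.25, 3.17 and 2.78 TPM, a mean of 3.07 ± 0.253 TPM (SD, n = 3). ZEB1 was above ZEB2 in 3 of 3 libraries by TPM, without overlap. The log2 ratio of ZEB1 to ZEB2 was 1.64 ± 0.06 on the log2(TPM + 1) scale (SD, n = 3).

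By coverage the order of this pair was the opposite. ZEB1 had a coverage of 7.53, 7.16 and 6.18 in replicates 1, 2 and 3, and ZEB2 had 11.7, 10.9 and 9.16. ZEB2 was above ZEB1 in each library, and the log2 ratio of ZEB1 to ZEB2 was -0.54 ± 0.04 on the log2(coverage + 1) scale (SD, n = 3). Coverage was put on the FPKM scale by dividing it by the highest coverage per FPKM of the library, as defined above. On that scale ZEB1 was at 0.555 ± 0.0140 against a deposited FPKM of 5.55 ± 0.130, and ZEB2 to 0.842 ± 0.0410 against 1.46 ± 0.113 (SD, n = 3). ZEB1 was thus the lowest of the 8 expressed genes by coverage and the fourth highest by TPM. Which value of ZEB1 is nearer to its transcript level cannot be decided from these tables.

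**Figure D2:**
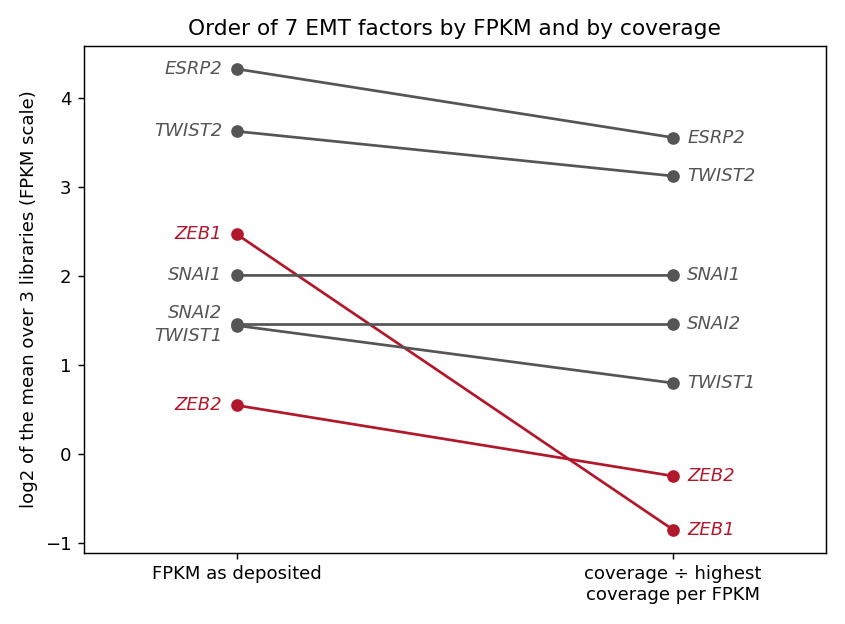
Mean of 3 libraries for the 7 expressed EMT factors, as log2 of the deposited FPKM (left) and of coverage divided by the highest coverage per FPKM of each library (right). Lines join the values of 1 gene, with ZEB1 and ZEB2 in red. The lines of ZEB1 and ZEB2 cross, and SNAI1 and SNAI2 lie level.

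The ratio of coverage to FPKM was therefore described for each gene as a percentage of the highest ratio in its library. It was 9.999% for ZEB1, 57.7% for ZEB2, 58.6% for ESRP2, 63.9% for TWIST1, 70.6% for TWIST2 and 87.6% for VIM, and SNAI1 and SNAI2 were at the highest ratio. Over the 11965 genes with at least 1 FPKM in every library, the median was 78.9%, and 4.84% of genes lay below ZEB1. The ratio was lower in genes with several transcripts. Of genes with 1 RefSeq transcript, 56.3% were at 99% or more of the highest ratio, against 4.47% of those with 2 or more. RefSeq lists 41 transcripts for ZEB1, 3 for ZEB2 and 1 each for SNAI1 and SNAI2. VIM also has 1 and was below the highest ratio. The part of transcript number in the value of ZEB1 was not tested.

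**Figure D3:**
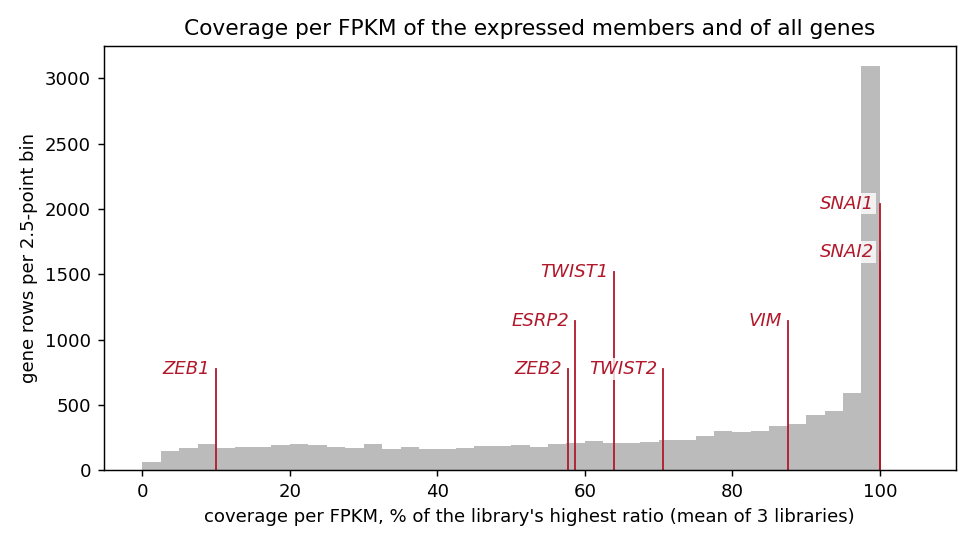
Histogram of the ratio of coverage to FPKM, as a percentage of the highest ratio in the library (mean of 3 libraries), over 11965 genes, with the 8 expressed genes of the set marked by red lines whose heights carry no value. ZEB1 lies far to the left at 9.999%, and SNAI1 and SNAI2 lie at the right edge.

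ZEB1-AS1, which starts beside ZEB1 on the other strand and overlaps its row over 1953 bp, had 2.55 ± 0.328 TPM (SD, n = 3). ZEB2-AS1, which overlaps ZEB2 over 778 bp, was listed at 0 in every library. LOC100505502, on the minus strand within the span of ZEB1, had 0.321 ± 0.161 TPM (SD, n = 3). The 3 genes nearest in level to ZEB1 were FAM210A, ERMP1 and TRADD, each within 0.03 of it on the log2(TPM + 1) scale in all 3 libraries.

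The microRNAs that repress ZEB1 and ZEB2 pair through their seed, bases 2 to 8. Mature sequences from RefSeq (GRCh38.p14) are shown with the seed in capitals because 2 seeds account for all 5 members of the miR-200 family. The last sequence is miR-205, which has another seed.
hsa-miR-200b-3p: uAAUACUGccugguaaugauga
hsa-miR-200c-3p: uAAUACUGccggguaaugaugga
hsa-miR-429: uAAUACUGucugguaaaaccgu
hsa-miR-200a-3p: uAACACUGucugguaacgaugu
hsa-miR-141-3p: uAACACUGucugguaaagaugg
hsa-miR-205-5p: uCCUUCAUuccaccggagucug

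The 3′ untranslated regions of the MANE Select transcripts of ZEB1 (2540 nt) and ZEB2 (5370 nt) were searched on the transcribed strand for the reverse complements of these seeds. Each held 9 matches to the miR-200 family. ZEB1 held 6 of CAGTATT and 3 of CAGTGTT, and ZEB2 held 5 of CAGTATT and 4 of CAGTGTT. Of 1178 other 3′ untranslated regions within 10% of the length of that of ZEB1, 46.2% held at least 1 match of either kind, with a median of 0 matches. Of 558 within 10% of the length of that of ZEB2, 70.8% did, with a median of 1 match. In both sets 0% held 9 or more. The miR-205 match ATGAAGG occurred 1 time in ZEB1 and 0 times in ZEB2. At least 1 such match occurred in 18.0% of the 1178 regions and in 33.3% of the 558. The following sites (GENCODE v44 on GRCh38) are shown with the seed match in capitals, to set both kinds of site beside the seeds above.
ZEB1, chr10:31528492-31528514, plus strand: ctgatttttacctatCAGTATTa
ZEB1, chr10:31528782-31528804, plus strand: tgagatttgatttaaCAGTGTTa
ZEB2, chr2:144388989-144389011, minus strand: cgcactacaatgcatCAGTATTa
ZEB2, chr2:144388710-144388732, minus strand: agtgccatccttgtaCAGTGTTa

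Of the 8 deposited rows for these microRNAs and their hosts, 7 were listed at 0 in every library. They were MIR200A, MIR429, MIR200C, MIR141, MIR200CHG, MIR205 and MIR205HG. MIR200B was listed at 0 in replicates 1 and 3 and at 0.0111 TPM in replicate 2. The rows measure RNA fragments at the precursor and host genes, and mature microRNAs were not measured. All gene rows at 0 in every library made up 40.7% of the table.

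SNAI1 and SNAI2 encode zinc finger repressors that silence CDH1. SNAI1, on the plus strand of chromosome 20 from 49982980 to 49988886, had 8.89, 8.39 and 8.06 TPM in replicates 1, 2 and 3, a mean of 8.45 ± 0.415 TPM (SD, n = 3). SNAI2, at chromosome 8 on the minus strand from 48917598 to 48921429, had 5.92, 5.85 and 5.59 TPM, a mean of 5.78 ± 0.176 TPM (SD, n = 3). The libraries did not overlap, and SNAI1 was higher in 3 of 3. The log2 ratio of SNAI1 to SNAI2 was 0.48 ± 0.03 by TPM and 0.53 ± 0.04 by coverage, each with 1 added to the values (SD, n = 3). Both rows have the same start and end as the MANE Select transcript, which has 3 exons in each gene. The third member of the family, SNAI3, had 0.242 ± 0.0638 TPM, and its antisense row SNAI3-AS1 had 0.684 ± 0.163 TPM (SD, n = 3).

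TWIST1 and TWIST2 encode basic helix-loop-helix factors that act with E proteins such as the product of TCF3. TWIST2, on the plus strand of chromosome 2 from 238848032 to 238910534, had 28.6, 26.5 and 22.9 TPM in replicates 1, 2 and 3, a mean of 26.0 ± 2.85 TPM (SD, n = 3). TWIST1, at chromosome 7 on the minus strand from 19113047 to 19117672, had 6.31, 6.29 and 4.55 TPM, a mean of 5.72 ± 1.01 TPM (SD, n = 3). TWIST2 was the higher in each library, and both genes were lowest in replicate 3. TWIST2 had 4.59 ± 0.421 times the TPM of TWIST1 and 5.07 ± 0.432 times its coverage (SD, n = 3). It took between 80.8% and 83.4% of the summed TPM of the pair. Reads from stretches that the paralogs share could have been assigned to either gene. The genes nearest in level to TWIST2 were RANBP9, CDH13 and RAB4A, within 0.01, 0.02 and 0.04 of it on the log2(TPM + 1) scale in all 3 libraries.

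The spread between libraries differed among the genes. TWIST1 had a coefficient of variation of 17.7%, against a median of 7.61% in the 3685 genes within a factor of 2 of its mean, and exceeded 91.6% of them. TWIST2 had 10.9% against a median of 5.20% and exceeded 92.8% of its 4602 neighbours, and VIM had 6.93% against 3.28% and exceeded 85.7% of 258. ZEB1, SNAI2, SNAI1, ESRP2 and ZEB2 lay below the median of their neighbours, with values between 3.02% and 8.26%. Of the 8 expressed genes, 7 were highest in replicate 1 and 7 were lowest in replicate 3, and ESRP2 was the exception to both. The share of all genes with this order was not counted, so it is not read as a trait of these genes. Replicate 1 had the highest and replicate 3 the lowest ratio of coverage to FPKM, and the part of depth in these differences was not tested. The 4 genes whose mean reached 10 TPM had ranges over the libraries between 0.08 and 0.30 on the log2(TPM + 1) scale. A range above 1 occurred in 0.273% of the 8419 genes whose mean reached 10 TPM.

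**Figure D4:**
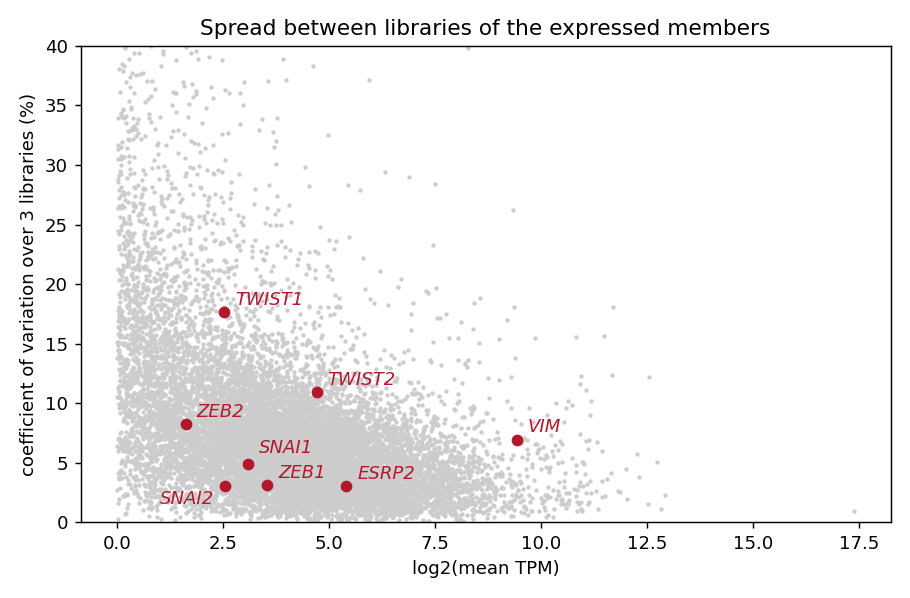
Coefficient of variation of TPM over 3 libraries against log2 of the mean TPM. Grey points are the 13753 genes whose mean reached 1 TPM, of which 264 lie above the axis limit of 40%, and red points are the 8 expressed genes of the set. TWIST1, TWIST2 and VIM lie high among genes of their level, and ESRP2, ZEB1 and SNAI2 lie low.

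ESRP1 and ESRP2 encode paralogous RNA-binding proteins of epithelial cells. ESRP2, at chromosome 16 on the minus strand from 68225968 to 68236175, had 40.8, 43.0 and 42.9 TPM in replicates 1, 2 and 3, a mean of 42.3 ± 1.28 TPM (SD, n = 3). Its mean exceeded 75.04% of the genes whose mean reached 1 TPM. ESRP1, on the plus strand of chromosome 8 from 94640999 to 94707466, was listed at 0 TPM in each of the 3 libraries, so no ratio of the pair is given. GRHL2, on the plus strand of chromosome 8 from 101492439 to 101678104, was also listed at 0 TPM in each library. Of this epithelial trio, ESRP2 alone was above 0. The smallest level that the reads could show is not known. The row of NFATC3, on the plus strand, overlaps the 3′ end of the ESRP2 row over 3292 bp and had 19.4 ± 0.952 TPM (SD, n = 3). Reads there could have been assigned to either gene. The MANE Select transcript of ESRP2 runs from 68229033 to 68236127, and NFATC3 ends at 68229259, so most of the overlap lies outside that transcript. MIR6773, within the ESRP2 row on the same strand, had 6.45 ± 1.78 TPM (SD, n = 3). MEGF6, ATP13A1 and PMPCB were nearest to ESRP2, each within 0.04 of it on the log2(TPM + 1) scale in all 3 libraries.

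Other epithelial transcription factors spanned a wide range of levels. KLF5 and KLF4, which encode zinc finger factors of epithelia, had 68.3 ± 3.57 and 59.6 ± 2.47 TPM, and ELF3, for an epithelial ETS factor, had 51.5 ± 2.18 TPM (SD, n = 3). These 3 were the only genes of this list of 10 with at least 1 TPM in every library, beside 59.5% of protein-coding gene rows. OVOL1 and ELF5 were listed at 0 in every library. The GRHL2 paralogs were low, with 0.995 ± 0.0497 TPM for GRHL1 and 0.00812 ± 0.0141 TPM for GRHL3 (SD, n = 3).

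All 9 listed splicing factors that act beside the ESRP proteins had at least 1 TPM in every library, beside the same 59.5% of protein-coding gene rows, with a median of 32.8 TPM. The highest were HNRNPM with 356 ± 3.31 TPM, PTBP1 with 339 ± 3.78 TPM and CELF1 with 78.9 ± 2.85 TPM (SD, n = 3). HNRNPM favours mesenchymal splice forms where ESRP1 favours epithelial ones. Of 9 genes that the ESRP proteins splice, 8 had at least 1 TPM in every library, again beside 59.5% of protein-coding gene rows. CD44, for a hyaluronan receptor, had 92.4 ± 5.90 TPM, CTNND1, for p120 catenin, had 57.6 ± 2.46 TPM and SCRIB, for a polarity protein, had 40.8 ± 1.40 TPM (SD, n = 3). FGFR2 had 0.449 ± 0.119 TPM (SD, n = 3). The tables give 1 value for each gene, so epithelial and mesenchymal splice forms were not separated.

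The genes of proteins that work with the EMT repressors were counted next. All 14 corepressor genes reached 1 TPM in every library, beside 59.5% of protein-coding gene rows, with a median of 48.3 TPM. HDAC1, for a histone deacetylase, had 187 ± 8.32 TPM, PRMT5, for an arginine methyltransferase, had 119 ± 2.66 TPM and KDM1A, for a histone demethylase that SNAI1 recruits, had 107 ± 4.75 TPM (SD, n = 3). CTBP1 and CTBP2, whose products bind ZEB1, had 62.5 ± 6.52 and 44.9 ± 3.18 TPM (SD, n = 3). There were 14 genes that regulate the stability of SNAI, ZEB and TWIST proteins. Of these, 11 had at least 1 TPM in every library, beside the same 59.5% of protein-coding gene rows. GSK3B, for the kinase that marks SNAI1 for degradation, had 34.8 ± 2.08 TPM, CTDSP1, for a phosphatase that opposes it, had 32.6 ± 1.45 TPM and FBXW11, for a ubiquitin ligase subunit, had 32.4 ± 1.49 TPM (SD, n = 3).

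Of 15 other EMT transcription factors and their inhibitors, 8 had at least 1 TPM in every library, which is near the 59.5% of protein-coding gene rows. ID3 and ID1, for proteins that sequester E proteins, had 225 ± 4.71 and 72.6 ± 4.56 TPM, and TCF3 had 43.99 ± 1.83 TPM (SD, n = 3). PRRX1, GSC and TBXT were listed at 0 in every library, as was ID4.

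Of the genes that EMT lowers and those that it raises, the shares that reached 1 TPM were both near the 59.5% of protein-coding gene rows. Of 20 epithelial genes that are repressed in EMT, 11 had at least 1 TPM in every library, 8 were below it in every library, and the median was 1.63 TPM. PKP3, for a desmosomal plakophilin, had 71.3 ± 4.84 TPM, LLGL2, for a polarity protein, had 66.2 ± 0.722 TPM and MUC1, for a mucin, had 38.0 ± 2.17 TPM (SD, n = 3). CDH1 had 1.02 ± 0.0382 TPM (SD, n = 3). It was at 0.980 TPM in replicate 2 and above 1 TPM in the other libraries, so it is in neither the 11 nor the 8. Of 23 mesenchymal genes, 14 reached 1 TPM in every library, 8 were below it in every library, and the median was 5.91 TPM. LGALS1, for a galectin, had 952 ± 62.2 TPM, S100A4, for a calcium-binding protein, had 562 ± 12.8 TPM and TPM1, for a tropomyosin, had 173 ± 6.32 TPM (SD, n = 3). SPARC and CDH11 were listed at 0 in every library. The medians of both lists include genes below 1 TPM. Over all 18739 protein-coding gene rows, which also include such genes, the median was 4.99 TPM. Over the 11312 of these rows whose mean reached 1 TPM it was 19.5 TPM.

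**Figure D5:**
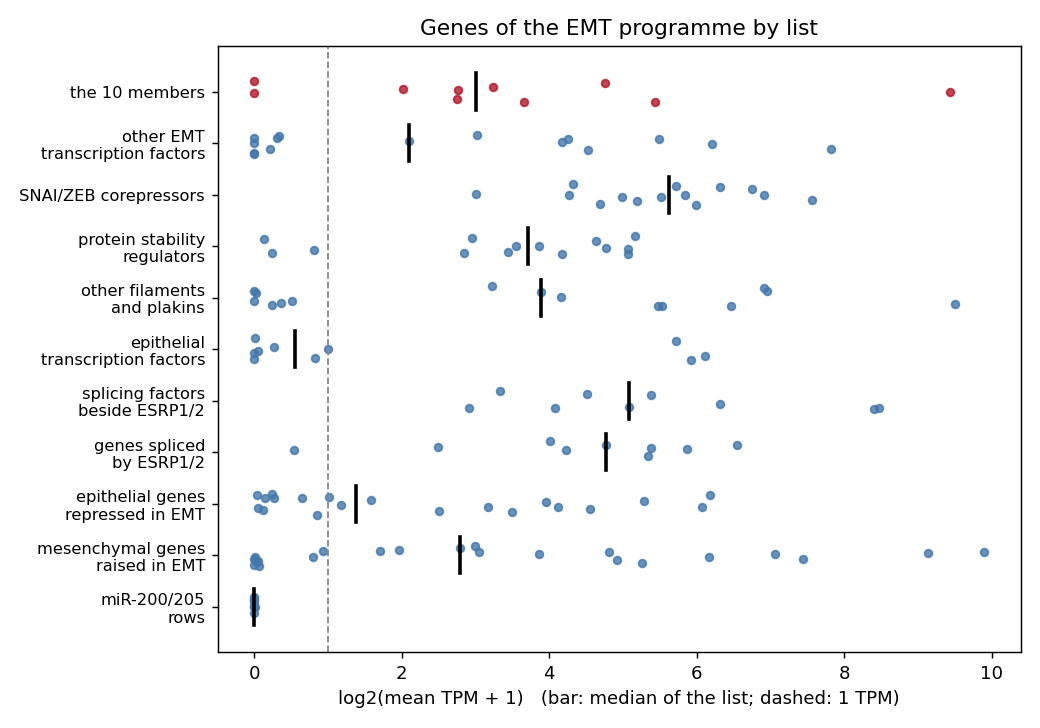
Mean level of each listed gene on the log2(mean TPM + 1) scale, with 1 point per gene, the median of each list as a black bar and 1 TPM as a dashed line. The 10 genes of the set are in red. Corepressors and splicing factors lie wholly to the right of the dashed line, the microRNA rows lie at 0, and the epithelial and mesenchymal lists spread over both sides.

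E-boxes of the form CACCTG, or CAGGTG on the other strand, were searched in RefSeq promoters (GRCh38.p14), from 250 bases before to 50 after a start. At least 1 occurred in 20.6% of 35116 promoters, and 3 or more in 0.635%. An entry was found for 4 of the 10 genes. The promoters of VIM, ZEB2 and TWIST2 held 0, and 2 of the 7 ZEB1 start sites held at least 1. CRB3 and PATJ, for polarity proteins and described targets of ZEB1, were the 2 of 8 searched epithelial genes with an entry. The CRB3 promoter, whose start lies inside the deposited CRB3 row, held 5 E-boxes and that of PATJ held 3. Some of them are shown with the E-box in capitals, because this is the motif that ZEB and SNAI proteins bind.
CRB3, chr19:6464031-6464060, plus strand: atgctcgcaatgCAGGTGtaaggtccccct
CRB3, chr19:6464112-6464141, plus strand: ggggtcccgttaCAGGTGcgcccacagcgc
PATJ, chr1:61742297-61742326, plus strand: ccggtaggaattCACCTGcacgtaaacagc
PATJ, chr1:61742477-61742506, plus strand: ctcacttccgccCAGGTGaggcagggccga

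CRB3 had 14.4, 14.8 and 14.2 TPM in replicates 1, 2 and 3, and PATJ had 4.81, 5.01 and 4.14 TPM. Both were above 1 TPM in every library. The binding of ZEB or SNAI proteins was not measured, and a match is a description of the sequence.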

How the data were processed

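RNA was measured in 3 libraries labelled wild-type HepG2. The submitters' processing notes name FastQC 0.11.8, Trim Galore 0.6.2, STAR 2.6.1a, StringTie without a version, and GRCh38. The annotation and the strand setting are not given in the sources used here. In the tables that the authors deposited, coverage is a gene's mean depth without further scaling. FPKM and TPM, also from the authors, correct for the length of the gene and the size of the library. The 3 tables were joined by name and position (43389 rows), and 4069 rows on alternate, unlocalized or unplaced references were left out.

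The genes and lists were chosen with earlier results of these data known. All 10 genes are named, with the 3 highest of each list, up to 3 genes at 0 (all 7 for the microRNA rows), and the 3 genes nearest in log2(TPM + 1) for members with a mean of at least 10 TPM. Others named from the lists were chosen after their values were seen, as were the sequence searches. These other genes include CDH1, CTBP1, CTBP2, FGFR2, GRHL1, GRHL3, SNAI3, ID4, CRB3 and PATJ. They also include DES, PRPH, NEFL, NEFH, SYNM, INA, NES, COL5A1, COL1A1 and ACTA2. No test between groups was possible with 1 condition. Ratios were taken within libraries on the log2(TPM + 1) scale. The calculation of the range of log2(TPM + 1) over the libraries was tested on simulated data. That of the coefficient of variation was not. Python 3.11.15, numpy 2.4.6, pandas 2.3.3 and matplotlib 3.10.9 were used.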

Additional observations from a re-analysis of the deposited data

How the results depend on the processing

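The mean of VIM was 694 TPM, and 870 TPM when mitochondrially encoded genes, with 19.9% to 20.3% of TPM in each library, were left out of the scaling. That choice by its construction multiplies every gene, the 7 other expressed ones included, by 1.25 to 1.26. Its percentile of 98.8 became 99.1 among genes whose mean reached 0.1 TPM, 99.6 with no filter and 98.9 by coverage. The 8 genes with at least 1 TPM became 4 with a limit of 10 TPM. The log2 ratio of ZEB1 to ZEB2 was 1.64, and was 1.89 with a pseudocount of 0.1, 1.92 with 0.01 and 1.41 by FPKM, and it reversed to -0.54 by coverage, for which the cause was not tested. Under the same settings the ratio of SNAI1 to SNAI2, at 0.48, was 0.54, 0.55, 0.42 and 0.53, and that of TWIST1 to TWIST2, at -2.01, was -2.18, -2.19, -1.85 and -2.28. FPKM and TPM differ by 1 factor per library, so the shifts with 0.1, 0.01 and FPKM come from the size of the added value. With each replicate left out, VIM ranged from 666 to 710 TPM and its percentile from 98.7 to 98.8, the number of genes stayed at 8, and the ratios ranged from 1.60 to 1.66, from 0.46 to 0.49 and from -2.06 to -1.97. Median-of-ratios scaling and summing rows over every reference moved no mean by more than 1 SD. No paired analysis was possible because all libraries share 1 condition. The ratio of ESRP1 to ESRP2 has no value under any setting, because ESRP1 was listed at 0. The unknown depth limits what a value of 0 can show.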
